A study of Homo sapiens with 4 samples.

Results

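The growth factor receptor tyrosine kinases examined here were 10 receptors of note in gastric cancer, found in the deposited table by their gene symbols. Of the 10, 9 had a row among the 14431 genes: EGFR, ERBB2, ERBB3, MET, FGFR2, FGFR3, FGFR4, IGF1R and INSR. FGFR1 had no row in the table used here and was not analysed. RNA was sequenced in 2 control libraries (genotype WT) and 2 siAARS1 libraries (genotype AARS1 knockdown, by siRNA transfection) of HGC27 cells, an established line from a human gastric carcinoma. All 4 came from cells kept in DMEM without glucose, with 10% FBS and 25 mM lactate, for 24 h per the labels. The text of the study gives another duration, and no library without lactate was compared. Values are CPM, reads of a gene scaled to a fixed library total. As a check of the knockdown, AARS1 (listed as AARS) was at 428 and 417 CPM in the controls against 292 and 298 CPM after knockdown, 69.7% of control. Its log2 change was -0.52 with an SE of 0.0357 (limma, adjusted p = 2.52e-11), while 38.0% of all genes were lower by that test. FGFR4 (-0.61) and ERBB3 (-0.87) fell more, so the fall of AARS1 is a weak check of the knockdown.

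A receptor tyrosine kinase spans the plasma membrane once. In most of the family, binding of a growth factor outside the cell brings receptors together. Their kinase domains phosphorylate each other, and adaptor proteins dock on the phosphotyrosines and switch on the RAS-ERK and PI3K-AKT pathways. Active receptors are then ubiquitinated, taken up into endosomes and degraded. Amplification or high expression of ERBB2, FGFR2, MET and EGFR is a known feature of subsets of gastric cancer, and ERBB2 is a drug target in that disease.

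Most of the receptors were lower after AARS1 knockdown and MET was higher. Of the 9 receptors tested, 7 were lower (FGFR4, FGFR3, ERBB2, ERBB3, EGFR, INSR and IGF1R), 1 was higher (MET) and FGFR2 did not pass the test (limma on log2(CPM + 1), adjusted p over all 14199 genes tested). This has to be read against the whole table, in which 70.7% of the genes passed the same test, 32.6% higher and 38.0% lower. The median log2 fold change of the receptors was -0.42, beside -0.05 for all genes. Scaling the libraries to an equal median CPM moved the median of all genes to -0.27, and 80.4% of all genes were called, 23.5% higher and 56.9% lower, with 1 of the receptors higher and 8 lower. The libraries did not overlap between the groups for any of the 9 receptors, which was so for 85.1% of all genes. The labels do not say whether the 2 libraries of a group came from separate cultures, so the p-values measure the spread between these libraries.

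**Figure D1:**
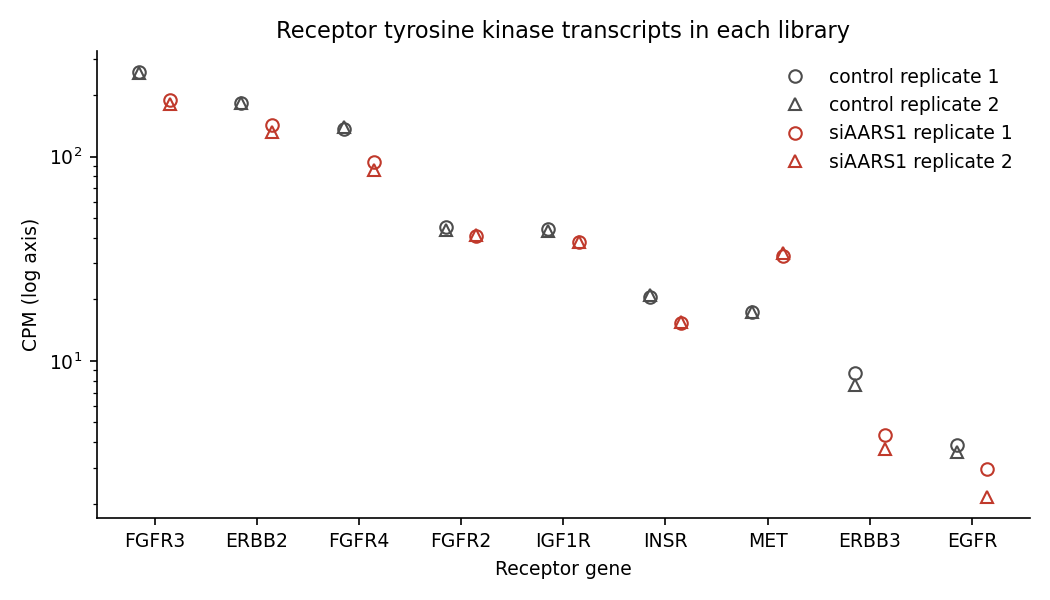
CPM of the 9 receptor genes in each library (vertical log axis), ordered by their control mean. Grey symbols are the control libraries and red symbols the siAARS1 libraries, with circles for replicate 1 and triangles for replicate 2. The red symbols lie below the grey ones for every receptor but MET, and the gap is smallest for FGFR2.

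As a family, the FGF receptors gave the most reads. FGFR3, a receptor for fibroblast growth factors that signals through the docking protein FRS2, was at 260 and 256 CPM in the controls, against 189 and 182 CPM after knockdown. Both siAARS1 values were well under both control values, at 71.9% of the control mean. On the log2 scale this was -0.47 with an SE of 0.0380 (limma, adjusted p = 3.37e-10). FGFR4, the FGF receptor that responds to the hormone-like FGF19 together with beta-Klotho, read 137 and 140 CPM in the controls against 94.2 and 86.4 CPM in the knockdown libraries. It fell to 65.3% of control with no overlap, by 0.61 on the log2 scale with an SE of 0.0463 (limma, adjusted p = 1.34e-10). FGFR2, whose gene is amplified in some diffuse-type gastric cancers, was at 45.3 and 43.7 CPM in the controls, against 40.7 and 41.6 CPM after knockdown. The siAARS1 mean was 92.4% of control, and its log2 change of -0.11, with a 95% interval of -0.23 to 0.01 (limma, adjusted p = 0.0829), did not reach the threshold. FGFR2 was past it, and lower, at -0.34 after median scaling, -0.27 after quantile normalization and -0.21 in edgeR with the upper quartile. KLB and KL, which encode the Klotho co-receptors, had no row in the table used here.

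FGFR3 is encoded on chromosome 4 (ENSG00000068078, 1793293 to 1808872, plus strand), FGFR4 on chromosome 5 (ENSG00000160867, 177086886 to 177098144, plus strand) and FGFR2 on chromosome 10 (ENSG00000066468, 121478334 to 121598458, minus strand). These and all gene positions below are GENCODE v29 on GRCh38. The 250 bases before the RefSeq start (GRCh38.p14) of these 3 genes and of MET, a start that can differ from that of GENCODE, are shown because they put side by side a pair of receptors that fell, the receptor that did not pass the test and the receptor that rose. They are written 5′ to 3′ on the strand of the gene, and capitals mark GGGCGG or its reverse complement CCGCCC, the core of the GC box that SP1 binds. The windows are chr4:1793043-1793292 for FGFR3, chr5:177086665-177086914 for FGFR4, chr10:121598445-121598694 for FGFR2 and chr7:116671946-116672195 for MET.
FGFR3: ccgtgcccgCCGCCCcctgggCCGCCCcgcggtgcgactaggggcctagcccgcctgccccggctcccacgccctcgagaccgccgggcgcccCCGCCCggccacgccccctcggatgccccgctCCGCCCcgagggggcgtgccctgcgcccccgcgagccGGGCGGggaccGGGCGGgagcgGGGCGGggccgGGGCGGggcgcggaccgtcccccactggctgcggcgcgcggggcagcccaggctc
FGFR4: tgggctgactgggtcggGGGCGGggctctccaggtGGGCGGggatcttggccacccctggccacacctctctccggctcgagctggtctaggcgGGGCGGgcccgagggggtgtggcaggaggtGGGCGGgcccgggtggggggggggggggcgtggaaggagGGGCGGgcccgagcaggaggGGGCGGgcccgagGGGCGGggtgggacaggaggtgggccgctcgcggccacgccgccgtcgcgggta
FGFR2: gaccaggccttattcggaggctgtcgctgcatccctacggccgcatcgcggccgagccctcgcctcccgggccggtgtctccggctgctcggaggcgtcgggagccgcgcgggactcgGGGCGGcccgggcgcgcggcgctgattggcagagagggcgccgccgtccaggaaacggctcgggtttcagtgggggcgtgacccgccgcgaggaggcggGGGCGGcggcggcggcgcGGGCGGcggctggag
MET: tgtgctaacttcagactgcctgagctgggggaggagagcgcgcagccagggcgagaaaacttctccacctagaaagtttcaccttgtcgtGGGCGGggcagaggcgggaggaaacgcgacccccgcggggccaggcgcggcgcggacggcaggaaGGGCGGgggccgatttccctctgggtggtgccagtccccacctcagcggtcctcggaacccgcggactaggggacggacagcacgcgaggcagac

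All 4 windows are rich in G and C. GC content was 86.8% in the FGFR3 window, 79.6% for FGFR4, 78.4% for FGFR2 and 68.4% for MET, beside a median of 58.0% over 35116 windows of the same length in the RefSeq table. They held 8, 7, 3 and 2 GC box cores in that order. The windows of other receptors that fell held 4 (INSR), 2 (EGFR), 2 (IGF1R) and 0 (ERBB2, with 65.6% GC). The ERBB2 window (chr17:39687844-39688093), its only one in that table, lies inside PGAP3, a gene of the other strand (39671122 to 39696797). Its count may therefore not describe the start that ERBB2 uses in these cells. Leaving ERBB2 aside, the counts did not follow the direction of change, as EGFR and IGF1R held as many as MET. Of the 9 receptors, 8 had a window in that table (all but ERBB3), and 7 of the 8 held at least 1 GC box core, against 42.6% of all windows. FGFR2 had 5 windows, and EGFR and FGFR4 had 2 each. For these only the window nearest the GENCODE start was used, while the shares over all windows count every window. GGAATG or its reverse complement CATTCC, the core bound by TEAD factors, was in none of the 8, and in 11.9% of all windows. TATAAA or TTTATA, the E-box CACGTG and the AP-1 letters TGAGTCA or TGACTCA were also in none of the 8, against 10.7%, 6.34% and 4.20% of all windows. With shares this low, absence from 8 windows says little about these receptors. Both strands were searched, and hits that share a base were each counted, as in the INSR window. The MET window shares with the FGFR3 and FGFR4 windows the presence of GC boxes and the absence of the other letters searched.

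Among the ERBB receptors ERBB2 gave most of the reads. ERBB2 (HER2), which has no known ligand of its own and pairs with the other ERBB receptors, stood at 184 and 183 CPM in the controls and at 143 and 132 CPM after knockdown. Both knockdown values lay under both controls, with a mean of 74.9% of control and a log2 change of -0.42 with an SE of 0.0425 (limma, adjusted p = 1.80e-08). Its gene (ENSG00000141736, chromosome 17, 39687914 to 39730426, plus strand) overlaps PGAP3 and MIEN1 on the other strand. MIEN1 was also lower (55.5 to 40.4 CPM), PGAP3 had means of 7.12 and 7.04 CPM, and the use of strand in counting was not given in the sources used here, so the ERBB2 value is uncertain where reads could be shared.

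ERBB3 and EGFR were scarce in these cells. ERBB3, a neuregulin receptor with a weak kinase that couples ERBB2 to PI3K (ENSG00000065361, chromosome 12, 56076799 to 56103505, plus strand), was at 8.74 and 7.66 CPM in the controls (298 and 243 reads) against 4.34 and 3.70 CPM after knockdown (134 and 123 reads). At 49.0% of control, its fall in CPM was the deepest of the 9 receptors. The log2 change was -0.87 with an SE of 0.122 (limma, adjusted p = 1.77e-06), on a scale that understates changes at such low CPM. It was -1.01 with a pseudocount of 0.1. The gene model AC034102.2 overlaps ERBB3 on the same strand and has no row in the table used here. EGFR, the receptor for EGF and TGF-alpha (ENSG00000146648, chromosome 7, 55019021 to 55211628, plus strand), read 3.87 and 3.59 CPM in the controls against 2.95 and 2.17 CPM in the knockdown libraries. Those values rest on 132 and 114 reads and on 91 and 72 reads. The groups did not overlap, and the log2 change was -0.42 with an SE of 0.145 (limma, adjusted p = 0.0137). It did not pass the threshold without control replicate 1 (-0.38, limma adjusted p = 0.0551), without siAARS1 replicate 2 (-0.26, limma adjusted p = 0.173) or in DESeq2 (-0.50, adjusted p = 0.135).

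MET, the receptor for hepatocyte growth factor (ENSG00000105976, chromosome 7, 116672390 to 116798386, plus strand), moved the other way. Its values were 17.5 and 17.4 CPM in the controls against 32.5 and 33.8 CPM after knockdown. Both siAARS1 libraries were close to each other and far above both controls, a 1.90-fold higher mean. The log2 change was 0.89 with an SE of 0.0699 (limma, adjusted p = 2.33e-10), and it stayed above 0 and past the threshold under each of the 15 alternatives, from 0.50 to 0.98. As a ratio within each library, log2(MET/FGFR3) was -3.90 and -3.88 in the controls and -2.54 and -2.43 after knockdown.

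Both receptors of the insulin family were lower. INSR, the insulin receptor (ENSG00000171105, chromosome 19, 7112255 to 7294034, minus strand), was at 20.6 and 21.0 CPM in the controls, against 15.3 and 15.6 CPM after knockdown. The replicates were close and the groups apart, at 74.2% of control and a log2 change of -0.41 with an SE of 0.0783 (limma, adjusted p = 9.25e-05). IGF1R, the receptor for both insulin-like growth factors (ENSG00000140443, chromosome 15, 98648539 to 98964530, plus strand), read 44.4 and 43.5 CPM in the controls against 38.1 CPM in both knockdown libraries. It fell the least of the receptors that passed, to 86.7% of control, by 0.20 on the log2 scale with an SE of 0.0565 (limma, adjusted p = 0.00345). In DESeq2 it was -0.15 and not past the threshold (adjusted p = 0.0987).

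The levels of different receptors can be set beside each other only per length, as CPM per kilobase of the merged exons of each gene in GENCODE v29. In control, FGFR3 was highest at 53.2 ± 0.628 (SD, n = 2), followed by FGFR4 (28.6 ± 0.485), ERBB2 (17.8 ± 0.0558) and FGFR2 (5.87 ± 0.154). IGF1R (3.15 ± 0.0474), MET (2.47 ± 0.00834), INSR (1.99 ± 0.0212), ERBB3 (0.907 ± 0.0845) and EGFR (0.298 ± 0.0157) came next, and no neighbours in this order overlapped. In siAARS1 the order was the same but for MET, which at 4.71 ± 0.134 lay above IGF1R (2.73 ± 0.00152) and under FGFR2 (5.43 ± 0.0811). Among 39 receptor tyrosine kinases with a row, FGFR3 ranked 1 in both groups, MET went from rank 23 to rank 15, and EGFR ranked 37 in both.

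Summed over the 9 receptors, this length-scaled level was 115 and 114 in control and 87.2 and 83.3 in siAARS1 libraries. With 2 libraries against 2 an exact permutation test cannot give a two-sided p below 0.333, so no test of the sum is given. The 3 FGF receptors made up 76.7% and 76.8% of it in control and 73.2% and 73.1% in siAARS1 libraries. MET made up 2.16% and 2.17% in control and 5.29% and 5.76% in siAARS1 libraries. The ERBB share ran from 16.1% to 16.7% over the 4 libraries, with both control values inside the range of the siAARS1 values. These shares depend on the length used. ERBB2 has 10321 bases of merged exons, against 4792 in its longest coding transcript. Its control level is 17.8 with the first and 38.3 with the second, which would raise the ERBB share and lower that of the FGF receptors. From bulk RNA, fewer cells that express a receptor and less receptor RNA in each cell cannot be told apart.

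**Figure D2:**
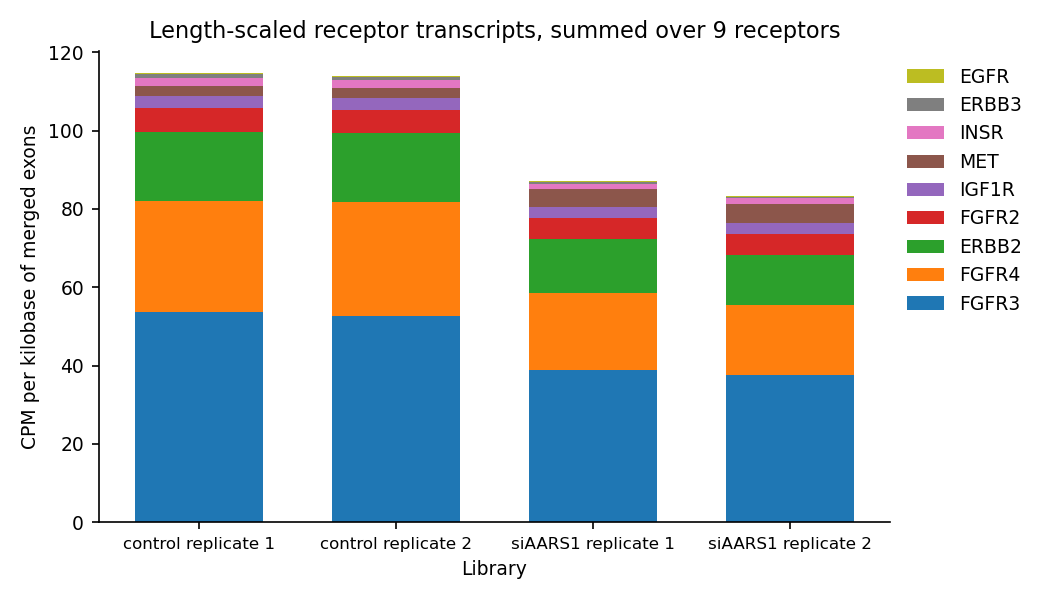
Stacked bars of the length-scaled level (CPM per kilobase of merged exons) of the 9 receptors in each of the 4 libraries. The bars reach 115 and 114 in control and 87.2 and 83.3 in siAARS1 libraries, and the MET segment is the only one that is thicker in the siAARS1 bars.

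Across all genes the fold change fell with the GC content of the transcript, and 5 of the 9 receptors lay between the quartiles of genes of like GC content. Transcripts of 40% to 45% GC had a median log2 fold change of 0.38 (quartiles 0.03 and 0.85, 2763 genes), and those of 60% to 65% GC had -0.30 (quartiles -0.53 and -0.12, 1752 genes). MET had the lowest GC content of the 9 receptors (44.5%) and the only rise, 0.89, just above that upper quartile. It is near the edge of its class, and the class of 45% to 50% GC had a median of -0.02 and an upper quartile of 0.24. FGFR4 (63.6%), FGFR3 (62.1%) and ERBB2 (60.3%) had the highest GC content. FGFR3 and ERBB2 lay between the quartiles of their class while FGFR4 lay under the lower one. ERBB3 (52.0% GC) lay far under the lower quartile of its class, which was -0.36 at 50% to 55% GC. EGFR (47.5% GC), at -0.42, was also under its lower quartile of -0.24. FGFR2 (54.6%) and IGF1R (51.7%) lay between the quartiles of that 50% to 55% class, and INSR (55.3%) between those of the next. GC content was taken from the coding transcript with the longest coding sequence. For MET it has 4632 bases, against 6635 in the longest coding transcript, for INSR 4721 against 8954 and for FGFR2 3061 against 4369. No other transcript was tried, so these places may depend on that choice.

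**Figure D3:**
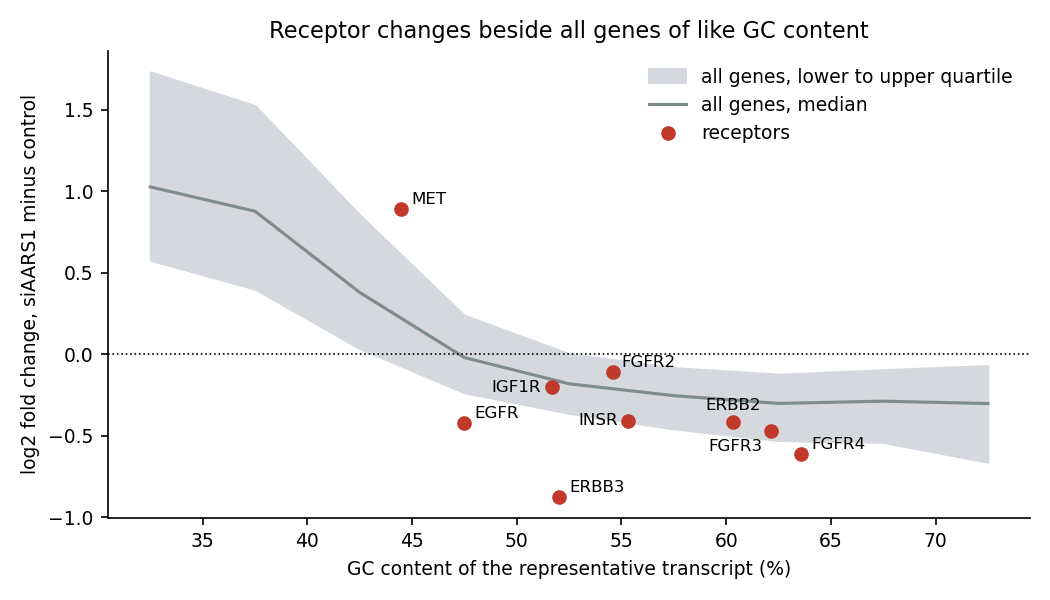
Log2 fold change, siAARS1 minus control, of the 9 receptors (red points) against the GC content of the representative transcript in percent. The grey line and band give the median and the quartiles of all genes in GC classes 5 percentage points wide, so MET stands above the band, FGFR4, ERBB3 and EGFR stand below it, and the others stand within it.

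Taking the trend with GC content and transcript length out of each library reduced most of the changes. The log2 fold changes were then 0.50 for MET, -0.75 for ERBB3, -0.61 for EGFR, -0.26 for FGFR4, -0.17 for INSR, -0.14 for IGF1R and -0.12 for FGFR3. All 7 kept an adjusted p-value under 0.05 in limma, the closest being INSR at 0.0482. ERBB2 was at -0.07 and no longer passed (limma adjusted p = 0.0515), though it did when the replicate number was added as a block (limma adjusted p = 0.0412, 8 receptors called). FGFR2 turned to 0.11 without passing (limma adjusted p = 0.0656). The median over the 9 receptors was -0.14, beside -0.02 for all genes. AARS1 was at -0.32 (limma adjusted p = 3.54e-09). In this fit 66.3% of 13819 genes were called, 31.7% higher and 34.6% lower. A real change that goes with GC content or length would be taken out too, and the part of GC content in the changes was not tested. The corrected values also depend on the transcript chosen for each gene, which was not varied.

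**Figure D4:**
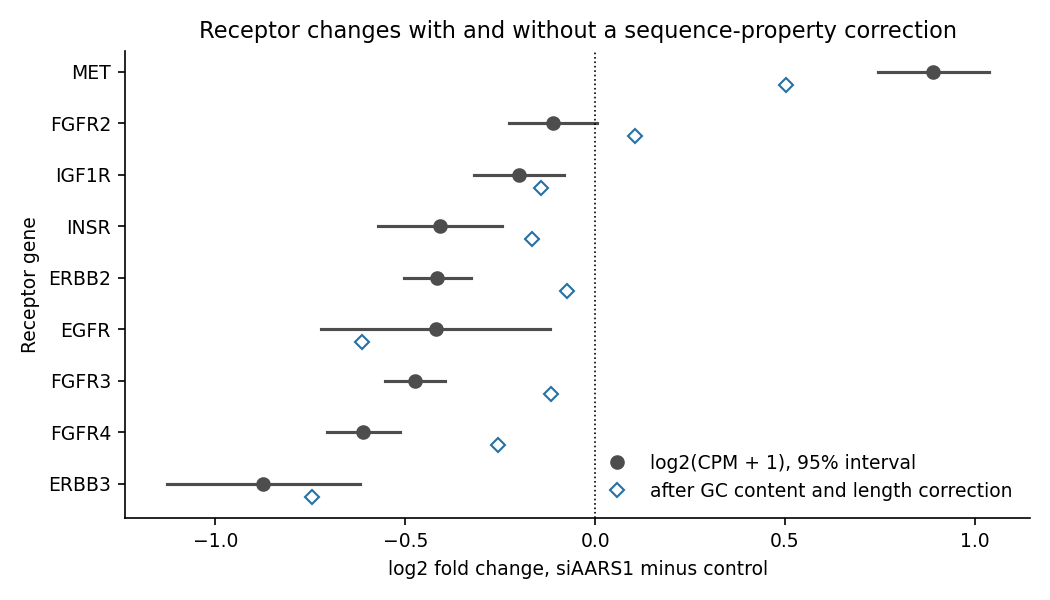
Log2 fold change, siAARS1 minus control, of the 9 receptors. Black points with lines are the limma estimates on log2(CPM + 1) with 95% intervals, and blue diamonds are the estimates after the correction for GC content and length, which move ERBB2 from -0.42 to -0.07 and leave MET highest and ERBB3 lowest.

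The ligands of these receptors were mostly scarce or without a row. Of 33 ligand genes, 10 had a row and 9 were tested, with 1 higher, 4 lower and 4 not past the threshold. Among all genes 32.6% were higher and 38.0% lower, or 31.7% and 34.6% after the correction for GC content and length. IGF2, an insulin-like growth factor that binds IGF1R and an INSR isoform, fell from 41.8 ± 0.779 to 28.9 ± 1.13 CPM (SD, n = 2), or by 0.52 on the log2 scale. HBEGF, a ligand of EGFR and ERBB4, fell from 7.21 to 5.80 CPM (-0.27, limma adjusted p = 0.0391). NRG4, a neuregulin that binds ERBB4, rose from 4.42 to 6.75 CPM (0.52), above 5 CPM only after knockdown. FGF21 and TGFA, with control means of 2.69 and 1.60 CPM, changed more and were lower, at -1.04 and -0.60. FGF19 was at 1.14 and 0.788 CPM in the controls and at 0.194 and 0.451 CPM after knockdown. It was not tested, as its mean stayed under 1 CPM in both groups. HGF, the ligand of MET, was at 1.26 and 0.914 CPM in the controls and at 0.615 and 1.05 CPM after knockdown, so its groups overlapped and its log2 change of -0.19 did not pass (limma adjusted p = 0.343). The HGF values rest on 19 to 43 reads. After the correction for GC content and length HGF was lower, at -0.98, and passed (limma adjusted p = 4.77e-05). IGF2 also stayed lower (-0.20, limma adjusted p = 0.00293), and neither NRG4 (0.24) nor HBEGF (-0.13) passed. In that fit 5 ligands were lower and 0 higher, and among the 5 only IGF2 had a mean of at least 5 CPM.

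The IGF-binding proteins, secreted proteins that hold insulin-like growth factors away from their receptors or present them, fell together. All 6 tested were lower, beside 38.0% of all genes, with a median log2 fold change of -0.62. IGFBP6 went from 111 ± 8.05 to 46.5 ± 0.930 CPM (SD, n = 2), or -1.24 on the log2 scale. IGFBP3 was at -0.91, IGFBP2 at -0.65, IGFBP5 at -0.59 and IGFBP7 at -0.58. After the correction for GC content and length the 6 were still lower and called, beside 34.6% of all genes, with a median of -0.40.

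Co-receptors and heparan sulfate proteoglycans of the membrane were also mostly lower. Of 15 tested, 12 were lower, 1 higher and 2 not past the threshold, with a median log2 fold change of -0.31. Of all genes 38.0% were lower and 32.6% higher. The counts were 12 and 1 after the correction for GC content and length as well, beside 34.6% and 31.7% of all genes. NRP2, a co-receptor for semaphorins and VEGF, fell from 37.7 ± 0.636 to 18.7 ± 0.425 CPM (-0.97, and -0.90 after the correction). SDC3, a syndecan, PLXNB2, a plexin, and GPC1, a glypican, were at -0.55, -0.52 and -0.51. GPC6, another glypican, was higher at 0.76 and turned to -0.17 after the correction.

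Among 30 other receptor tyrosine kinases 8 were higher, 19 lower and 3 not past the threshold, with a median of -0.26. The shares over all genes were 32.6% higher and 38.0% lower. The named genes with the largest changes all rose. EPHA7, EPHA3 and EPHA5, receptors for ephrins, had log2 fold changes of 2.12, 1.63 and 1.43. DDR2, a receptor for fibrillar collagens, rose from 92.7 ± 1.31 to 264 ± 5.20 CPM (SD, n = 2), 2.85-fold higher. ERBB4, the neuregulin receptor absent from the list of 10, rose from 2.19 to 5.46 CPM (1.02), opposite in sign to EGFR, ERBB2 and ERBB3. After the correction for GC content and length EPHA7 (0.84), EPHA3 (0.61) and DDR2 (0.23) were still higher and past the threshold, EPHA5 (0.02) was not, and ERBB4 was at -0.13 and not past it.

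Adaptors that dock on active receptors went both ways. Of 29 tested, 11 were higher, 16 lower and 2 not past the threshold, with a median of -0.17, beside 32.6% higher and 38.0% lower among all genes. The largest changes were rises in PIK3R1 (2.32) and PIK3CA (2.12), the regulatory and catalytic subunits of PI3K, in SOS1 (1.91), which loads RAS with GTP, in YES1 (1.67), a SRC family kinase, and in FRS2 (1.60), the docking protein of FGF receptors. PIK3R1 was at 20.5 and 19.4 CPM in the controls and at 102 and 104 CPM after knockdown, 5.18-fold higher. After the correction for GC content and length these 5 were at 1.09, 0.60, 0.39, 0.43 and 0.16, with FRS2 not past the threshold. In that fit 7 adaptors were higher and 14 lower, beside 31.7% and 34.6% of all genes.

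The RAS, ERK and AKT genes were split as well. Of 21 tested, 8 were higher, 10 lower and 3 not past the threshold (median -0.07), beside 32.6% higher and 38.0% lower among all genes. The counts were 10 higher and 6 lower after the correction, beside 31.7% and 34.6% of all genes. NF1 (1.82) and RASA1 (1.13), which switch RAS off, BRAF (1.02), an activator of MEK, and the kinases RPS6KB1 (1.28) and RPS6KA3 (1.06) changed most. RASA1 (1.04), BRAF (0.89) and NF1 (0.47) kept a rise after the correction. For BRAF the transcript used has 2549 bases, against 9578 in its longest coding transcript. RPS6KB1 was at -0.10 and did not pass, and RPS6KA3 turned to -0.23 and passed.

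Genes that switch off, ubiquitinate, sort or cleave the receptors were the list with the most rises. Of 29 tested, 16 were higher, 9 lower and 4 not past the threshold, with a median log2 fold change of 0.23. Of all genes 32.6% were higher and 38.0% lower. This list also had the lowest median GC content of the lists (43.4%). After the correction for GC content and length 5 were higher and 16 lower, with a median of -0.19, beside 31.7% and 34.6% of all genes. USP8, which removes ubiquitin from endocytosed receptors, rose from 7.33 ± 1.32 to 35.4 ± 0.491 CPM (2.14, and 0.76 after the correction). NEDD4, a ubiquitin ligase, and SOCS4, a suppressor of cytokine signalling, were at 1.93 and 1.89, and at 0.48 and 0.24 after it. ADAM10, a protease that sheds ligands and receptors, and EPS15, an adaptor of endocytosis, were at 1.39 and 1.22, and neither passed after it (-0.09 and 0.04).

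**Figure D5:**
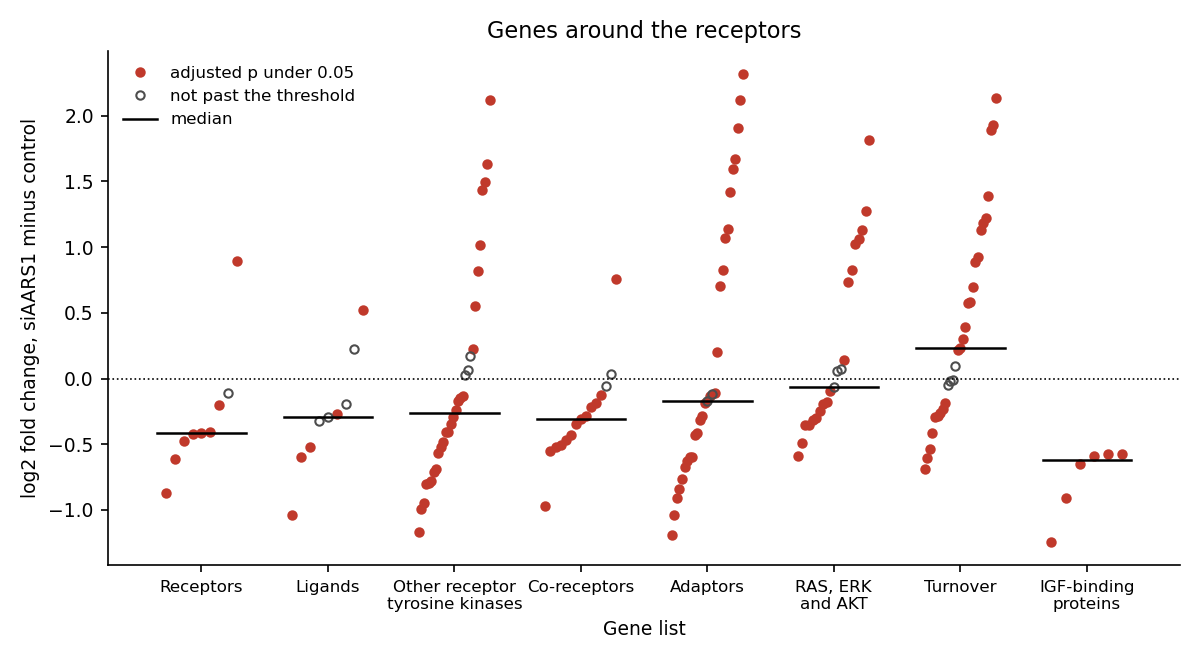
Log2 fold change, siAARS1 minus control, of the 9 receptors and of the tested genes of 7 lists around them, with each gene as a point, filled where the limma adjusted p is under 0.05, and each median as a line. Genes of a list are spread sideways in order of their change. All 6 IGF-binding proteins lie below 0, and the turnover list has the highest median, 0.23.

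Markers of the labelled cell type were mostly low or without a row. Of 7 epithelial markers 4 had a row, and their summed level was 46.3 and 45.5 CPM in the controls and 14.6 and 14.4 CPM after knockdown. All 4 (KRT8, CLDN7, CDH1 and CLDN4) were lower. For these and the marker counts below, the shares over all genes were 38.0% lower and 32.6% higher. None of 9 markers of differentiated gastric mucosa had a row, nor had any of 4 endothelial markers. The mesenchymal markers (5 of 6 with a row) went both ways, with 3 lower and 2 higher. Their sum was 5512 and 5449 CPM in the controls and 5039 and 4929 CPM after knockdown, nearly all of it from VIM, which went from 5099 to 4655 CPM. ZEB1, a transcriptional repressor of epithelial genes, rose from 6.50 ± 0.482 to 51.2 ± 1.61 CPM (SD, n = 2), by 2.80 on the log2 scale and 1.52 after the correction for GC content and length. ZEB2, its relative, rose from 13.1 to 39.9 CPM (1.54), and at 0.13 did not pass after the correction. Of the 6 fibroblast markers 4 were lower and 2 higher. Their sum was 6473 and 6676 CPM in the controls and 4808 and 4716 CPM after knockdown, most of it from the collagen genes COL3A1 (3704 to 2619 CPM) and COL1A1 (2359 to 1593 CPM). The proteoglycan genes LUM (log2 fold change 0.84) and DCN (0.11) were the 2 that were higher, and both turned lower after the correction (-0.20 and -1.40). The 2 leukocyte markers with a row summed to at most 5.31 CPM. The fall of ERBB3 and of the epithelial markers went the same way, and their part in the receptor results was not tested.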

How the data were processed

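Total RNA of HGC27 cells was sequenced in 2 control and 2 siAARS1 libraries, grouped by the sample titles. The authors deposited CPM values for 14431 genes, each above 1 CPM in at least 1 library. The submitters' processing notes name RSEM 1.3.3 and hg38, without their role, and strand and annotation are not given in the sources used here. The CPM were whole multiples of 1 read (100% of values, within 0.00051 CPM), which gave 30653210 to 33522573 reads in listed genes per library. At that depth 3 reads, the limit that 0 reads allow, equal 0.0880 to 0.0971 CPM, for counting error only. Chi-square per gene was 3.63 and 3.61 between replicates, above sampling noise.

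The test was limma 3.58.1 (R 4.3.3, eBayes with trend) on log2(CPM + 1) of genes whose mean reached 1 CPM in either group (14199 genes), with Benjamini-Hochberg adjusted p-values and a threshold of 0.05. Fold changes on this scale understate those of low genes. edgeR 4.0.16 and DESeq2 1.42.0 were run on the recovered reads. The correction for GC content and length took a smooth trend (mgcv 1.9.3) out of each library, for the 97.2% of genes with a transcript in GENCODE v29, using the coding transcript with the longest coding sequence. Only the main limma fit and edgeR with TMM scaling were run on simulated libraries. That simulation changed few genes and held no trend with GC content. It therefore does not check the correction, the other fits or a setting in which most genes change. Named genes were AARS1, all receptors and, per list, the most changed called genes (at most 5), given that the groups did not overlap and the higher mean reached 5 CPM. HGF, FGF19, FGF21, TGFA, KL, KLB, PGAP3, MIEN1 and the markers were named outside that rule. The receptors and lists were chosen with earlier results of these data known. Other alternatives were a pseudocount of 0.1, no filter, median and quantile scaling, a threshold of 0.01, a replicate block and leaving out each library.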

Additional observations from a re-analysis of the deposited data

How the results depend on the processing

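The receptor counts stayed at 1 higher and 5 to 8 lower under the 15 alternatives, and FGFR3, FGFR4, ERBB3, INSR and MET kept their direction and passed under each of them. EGFR did not pass at a threshold of 0.01 (-0.42) or in DESeq2 (-0.50), nor did IGF1R in DESeq2 (-0.15). ERBB2, at -0.074 after the correction for GC content and length, did not pass without the replicate block (limma adjusted p = 0.0515) and passed with it (limma adjusted p = 0.0412). FGFR2 passed under median scaling (-0.34), quantile normalization (-0.27) and edgeR with the upper quartile (-0.21), and turned to 0.11 after the correction for GC content and length, both without and with the replicate block. Across fits that each left out 1 library EGFR ran from -0.58 to -0.26, and 7 or 8 receptors were called. Over the alternatives 58.8% to 80.4% of all genes were called. The cause of these changes was not tested.

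Counts for the lists moved by over 1.5 times in these cases. Median scaling gave 8 ligands called, 7 of them lower, against 5 and 4. When GC content and length were corrected for, with no block or with the replicate block, 0 ligands were higher against 1, 7 adaptors were higher against 11, 6 RAS, ERK and AKT genes were lower against 10, and 5 turnover genes were higher and 16 lower against 16 and 9. DESeq2 gave 5 lower RAS, ERK and AKT genes.

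Per kilobase of the longest coding transcript, control levels were 58.1 for FGFR3, 44.3 for FGFR4, 38.3 for ERBB2, 10.2 for FGFR2, 3.59 for IGF1R, 2.62 for MET, 2.32 for INSR, 1.39 for ERBB3 and 0.380 for EGFR, in the same order as with merged exons. Every level moved by more than the SD between the control libraries, so the shares of the sum hold for merged exons only.

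The labels share replicate numbers between the groups without saying that they mark pairs, and the same number in both groups gave a correlation of 0.118 between the deviations from the group means. A fit with that block called 10389 genes against 10032, and 8 receptors as before, with no receptor call changed. Within the correction for GC content and length the block raised the receptors called from 7 to 8, by ERBB2. Depth limits EGFR most, at 72 to 132 reads per library.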
